A study of Homo sapiens with 58 samples.

Results

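The regulatory elements (REs) around SOX5 and SOX6 were examined across a titration of the transcription factor SOX9. SOX5 and SOX6 encode the closely related SoxD transcription factors, which work beside SOX9 in cartilage: SOX9 drives the chondrocyte programme, and the SoxD proteins bind next to it at cartilage genes such as COL2A1 and ACAN. SoxD proteins lack a transactivation domain of their own and bind DNA as dimers through an HMG box, the same kind of DNA-binding domain as that of SOX9. Both genes are themselves switched on downstream of SOX9 in cartilage.

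An RE, here a region of open chromatin in the deposited table, was assigned to a gene if its midpoint lay in the gene body or within 100 kb of an annotated start site (hg38, GENCODE v44). This gave 115 of 151457 REs. SOX5 (ENSG00000134532.20, chr12:23529504-24562544, minus strand, 20 start sites) had 53 REs, 47 of them in the gene body. SOX6 (ENSG00000110693.19, chr11:15966449-16739591, minus strand, 17 start sites) had 62, with 48 in the gene body. The REs were numbered from the 5′ end of each gene, SOX5-RE1 to SOX5-RE53 and SOX6-RE1 to SOX6-RE62. Most lay in introns, 42 of 53 at SOX5 and 39 of 62 at SOX6. Closely spaced REs are not independent, and 7 of 52 neighbouring pairs at SOX5 and 10 of 61 at SOX6 were less than 1000 bp apart.

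Accessibility was measured by ATAC-seq, in which Tn5 transposase inserts adapters into open chromatin, in cranial neural crest cells (CNCCs) made in culture from H9, an established embryonic stem cell line of human origin. In SOX9-tagged cells both SOX9 alleles carry FKBP12-F36V, mNeonGreen and V5 at the C terminus, and the degrader dTAGV-1 lowers the tagged protein. Clones S9CC13 and S9CC47 are each 1 edited line, and the wild-type (WT) cells are untagged. SOX9-tagged cells received 0, 0.5, 1.6, 5, 16 or 500 nM dTAGV-1 for 48 h, which left 100, 77.9, 51.7, 25.8, 8.14 and 0.95% of SOX9 according to the labels, with 7 replicates per dose. WT cells received 0 or 500 nM for 48 h, and both genotypes received vehicle for 24 h or 500 nM for 3 h or 24 h, with 2 replicates per group. All cells were grown with BMP2 and the WNT pathway activator CHIR. A replicate is a line and a differentiation. The 7 replicates of the dose series cover 6 differentiation batches, since both clones were run in R6, and p-values describe the spread between differentiations of this single parental line.

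Totals ran from 22.91 to 81.04 M counts in REs per sample, with a median of 45.59 M. Of 35 treated samples in the dose series, 33 deviated from their dose mean most like the 0 nM sample of their own replicate. The 5 nM sample of S9CC47_R6 stood apart, with a correlation of 0.0835 with its own 0 nM sample, against 0.559 to 0.945 for the other 34. The samples titled 0 and 0.5 nM of S9CC13_R14 have concentration labels opposite to their titles, and the titles were used. Promoters of all 8 neural crest markers were open at 0 nM, between 15.65 and 87.88 CPM (counts scaled to an equal library size). Among pluripotency markers NANOG and ZFP42 had no promoter RE and POU5F1 had 1.28 CPM, while LIN28A had 42.5 CPM. Promoters of all 5 chondrocyte markers were open as well, at 6.70 to 61.2 CPM, and an open promoter does not itself show expression.

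Sequences are printed for the REs on which the results below turn. The centre 300 bases of 3 strongly falling REs are given first, hg38, plus strand, 5′ to 3′. Capitals mark a SOX core, searched as ACAAAG or ACAATG on both strands. SOX5-RE37 is shown because it had the second largest fall of SOX5 with no core in this window.
SOX5-RE23, chr12:24020604-24020903: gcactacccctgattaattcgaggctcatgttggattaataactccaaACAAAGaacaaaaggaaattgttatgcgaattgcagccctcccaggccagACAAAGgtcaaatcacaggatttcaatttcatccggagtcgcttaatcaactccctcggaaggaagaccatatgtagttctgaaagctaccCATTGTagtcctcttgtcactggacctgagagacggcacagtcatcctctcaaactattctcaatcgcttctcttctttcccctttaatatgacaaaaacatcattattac
SOX5-RE37, chr12:23771265-23771564: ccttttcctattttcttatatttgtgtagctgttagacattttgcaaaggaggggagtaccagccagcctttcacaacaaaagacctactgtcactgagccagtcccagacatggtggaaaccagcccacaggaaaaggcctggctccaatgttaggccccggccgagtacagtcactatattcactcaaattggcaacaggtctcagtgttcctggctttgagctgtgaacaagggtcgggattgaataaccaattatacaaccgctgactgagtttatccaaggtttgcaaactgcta
SOX6-RE51, chr11:16001726-16002025: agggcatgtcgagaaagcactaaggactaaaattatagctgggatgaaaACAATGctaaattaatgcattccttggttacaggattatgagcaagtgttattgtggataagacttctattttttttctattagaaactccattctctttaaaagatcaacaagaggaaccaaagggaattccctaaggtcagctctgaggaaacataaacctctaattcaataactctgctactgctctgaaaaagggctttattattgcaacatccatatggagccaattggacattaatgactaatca

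SOX9 is known to bind as a dimer to cores that face each other, so sites with ACAA and TTGT facing at 7 to 9 bases between them were also searched. Such sites were found in 9 of the 115 REs. They lay in 7 of the 31 REs that fell at 500 nM, in 2 of 77 REs that were not called and in 0 of the 7 that rose. Among the 9 REs with a site, one site is shown for each of the 5 with the strongest change, with the facing bases in capitals. SOX5-RE37, SOX6-RE51 and SOX5-RE24 fell more than SOX5-RE25 and SOX6-RE40 and held no such site. SOX6-RE41 holds 2 such sites, of which the one nearer its centre is printed.
SOX5-RE23, chr12:24020647-24020685: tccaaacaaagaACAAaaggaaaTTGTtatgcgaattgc
SOX5-RE25, chr12:24015156-24015194: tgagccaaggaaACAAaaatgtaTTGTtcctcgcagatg
SOX5-RE44, chr12:23687883-23687921: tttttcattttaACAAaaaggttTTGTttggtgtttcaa
SOX6-RE40, chr11:16148795-16148834: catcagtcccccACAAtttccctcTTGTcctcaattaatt
SOX6-RE41, chr11:16126430-16126468: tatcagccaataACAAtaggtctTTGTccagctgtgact

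For comparison at equal length, the facing site was present in 28% of the 25 fallen REs of both genes that spanned 501 bp, in 9.89% of all fallen REs of that length and in 3.52% of all REs of that length. A SOX core was present in 58.95% of the 95 REs of 501 bp at both genes and in 46.9% of all REs of that length. The median GC content was 40.52% in the former and 47.51% in the latter, and its part in this difference was not tested. Cores facing each other at the full 6 bases, 3 to 5 bases apart, were in 0 of the 115 REs and in 0.203% of all REs of 501 bp. A match describes letters in the reference, not binding.

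Full depletion of SOX9 for 48 h lowered accessibility at many REs of both genes. At 500 nM, 17 of 53 REs of SOX5 fell and 3 rose, and 14 of 62 REs of SOX6 fell and 4 rose, with an adjusted p-value under 0.05. Of all REs, 13.9% fell and 10.2% rose. The median log2 fold change was −0.21 over REs of SOX5 and −0.16 over REs of SOX6, against 0.02 over all REs. More than a 2-fold fall was found at 6 REs of SOX5 and 4 of SOX6, and 3.88% of all REs fell this far. The 7 samples at 500 nM did not overlap the 7 at 0 nM at 8 REs of SOX5 and 4 of SOX6, against 4.03% of all REs. Because the samples are bulk, fewer cells with an open RE and less opening per cell cannot be told apart.

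Most REs that fell lay toward the 3′ end, a count with no test. At SOX5, 14 of 17 lay in the gene body 3′ of its middle, where 31 of the 53 REs lie, and 16 of 17 were intronic. At SOX6, 11 of 14 lay 3′ of the middle, where 33 of the 62 lie, and 10 were intronic. Of the REs of SOX6, 12 were nearest to the start site of PLEKHA7 or C11orf58, and 13 of the remaining 50 fell.

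**Figure D1:**
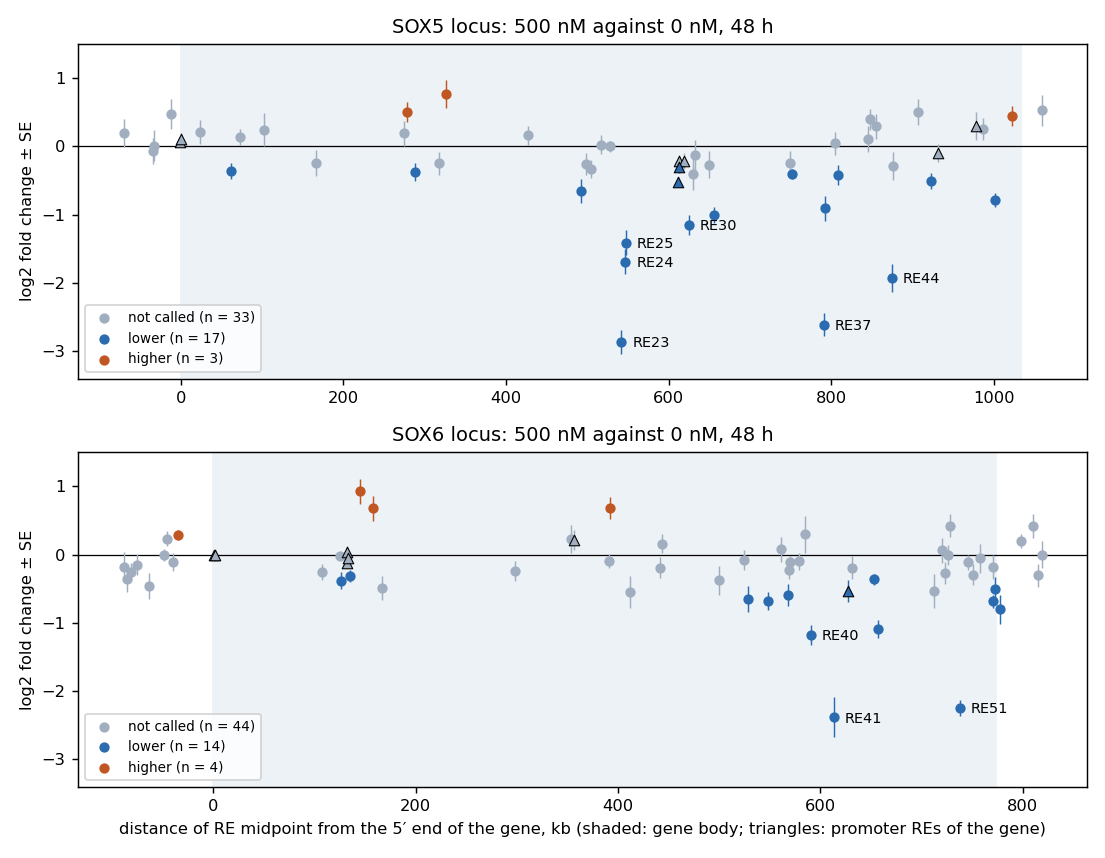
Log2 fold change at 500 nM against 0 nM after 48 h (y axis, ± SE) of each RE by its distance from the 5′ end of SOX5 or SOX6 in kb (x axis). Blue points fell (17 and 14), orange points rose (3 and 4), grey points were not called, triangles are promoter REs of the gene and shading is the gene body; the largest falls lie 3′ of the middle of each gene.

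The strongest response of the SOX5 locus was that of SOX5-RE23 (chr12:24020504-24021004), in an intron 541.8 kb into the gene. At 0 nM it ranged from 2.71 through a median of 5.02 to 10.6 CPM, and at 500 nM from 0.495 through 0.790 to 1.01 CPM. No sample at 500 nM reached the lowest at 0 nM, and the low values at 0 nM came from S9CC13_R10, R13 and R14. The log2 fold change was −2.86 ± 0.18 (SE, adjusted p = 4.2e-12), a 7.26-fold fall.

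SOX5-RE37 (chr12:23771165-23771665, intron) lies 791.1 kb into the gene. It ranged from 4.71 through 8.49 to 12.5 CPM at 0 nM and from 1.08 through 1.5 to 1.68 CPM at 500 nM, again with no overlap. It fell by 2.61 ± 0.17 on the log2 scale (adjusted p = 1.1e-11). SOX5-RE44 (chr12:23687693-23688193, intron) was less open, at 0.782, 1.75 and 3.30 CPM (lowest, median, highest) without dTAGV-1 and 0.158, 0.457 and 0.797 with 500 nM. The highest treated sample of SOX5-RE44 lay just above the lowest untreated sample, and the log2 fold change was −1.92 ± 0.21 (adjusted p = 9.8e-08).

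The other REs of SOX5 with more than a 2-fold fall also lay 3′ of SOX5-RE23. SOX5-RE24 (chr12:24015711-24016211) fell from 1.76 ± 0.482 to 0.553 ± 0.207 CPM (SD, n = 7), a change of −1.69 ± 0.18 on the log2 scale (adjusted p = 1.2e-07). Its neighbour SOX5-RE25 (chr12:24014769-24015269) fell from 3.16 ± 1.09 to 1.24 ± 0.436 CPM, a log2 change of −1.41 ± 0.19 (adjusted p = 3.2e-06). Further along, SOX5-RE30 (chr12:23937404-23938279) fell from 4.94 ± 2.21 to 2.19 ± 0.781 CPM, a log2 change of −1.15 ± 0.15 (adjusted p = 1.7e-06). All 3 lie in introns and were lower in 7 of 7 replicates.

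At SOX6 the most open of the strongly falling REs was SOX6-RE51 (chr11:16001383-16002368, intron), 737.7 kb into the gene. It ranged from 6.77 through 17.0 to 23.2 CPM at 0 nM and from 2.12 through 3.27 to 4.28 CPM at 500 nM, with no overlap. Its log2 fold change was −2.24 ± 0.12 (adjusted p = 1.7e-13), a 4.74-fold fall. SOX6-RE41 (chr11:16126245-16126745, intron) ranged from 0.953 through 1.63 to 1.96 CPM and fell to a range of 0.135 through 0.182 to 0.761 CPM. It fell by 2.38 ± 0.29 on the log2 scale (adjusted p = 7.9e-07), and all treated samples lay under all untreated ones.

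Other REs of SOX6 fell less. SOX6-RE40 (chr11:16148380-16148880, intron) fell from 8.90 ± 3.22 to 3.87 ± 0.676 CPM (SD, n = 7; log2 fold change −1.18 ± 0.14, adjusted p = 5.3e-07). SOX6-RE45 (chr11:16081991-16082491, intron) fell from 4.19 ± 1.14 to 1.98 ± 0.377 CPM (log2 fold change −1.08 ± 0.13, adjusted p = 6.9e-07). SOX6-RE56 (chr11:15968450-15968950), in an exon at the 3′ end of the gene, fell by 0.68 ± 0.10 (adjusted p = 6.5e-06). SOX6-RE58 (chr11:15962197-15962697), past the end of the gene, fell by 0.80 ± 0.22 (adjusted p = 0.0071) from 0.984 CPM on average.

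The 5′-most promoters of both genes were not called. SOX5-RE5 (chr12:24561952-24564404) covers the 5′-most start site and first exon of SOX5, and held 35.6 to 50.7 CPM (median 41.1) at 0 nM and 36.0 to 53.6 CPM (median 42.2) at 500 nM. The groups overlapped almost fully, and the log2 fold change was 0.07 ± 0.05 (adjusted p = 0.44). SOX6-RE10 (chr11:16738307-16738807), at the 5′-most promoter of SOX6, held 43.1 to 49.3 CPM (median 45.7) at 0 nM and 43.1 to 47.6 CPM (median 46.7) at 500 nM, and its log2 fold change was −0.01 ± 0.05 (adjusted p = 0.95), with a sign that changed with the scaling.

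Other open promoter REs of SOX6, SOX6-RE17 (chr11:16605506-16606670, 43.6 CPM at 0 nM) and SOX6-RE15 (chr11:16607569-16608069, 34.1 CPM), had log2 fold changes of −0.04 ± 0.06 (adjusted p = 0.67) and −0.13 ± 0.06 (adjusted p = 0.16). The most open RE of all, SOX6-RE13 (chr11:16613616-16614449), is intronic, its nearest coding gene start is that of C11orf58, and it held 55.7 CPM at 0 nM, its log2 fold change being −0.02 ± 0.05 (adjusted p = 0.84, opposite in sign with library totals).

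Within SOX5 an internal promoter did fall. SOX5-RE26 (chr12:23950695-23951536) overlaps a coding exon 611.4 kb into the gene, near a start site of shorter transcripts. It ranged from 28.9 through 34.9 to 42.5 CPM at 0 nM and from 22.8 through 24.2 to 27.5 CPM at 500 nM, so no treated sample reached the lowest untreated one. Its log2 fold change was −0.52 ± 0.07 (adjusted p = 6.4e-06). Beside it, SOX5-RE28 (chr12:23949624-23950124) had −0.21 ± 0.08 (adjusted p = 0.059), and it passed the threshold with the replicate block (adjusted p = 0.0075). Of promoter REs of the genes themselves, 2 of 8 of SOX5 fell and 0 rose, and 1 of 7 of SOX6 fell and 0 rose, where 8.76% of REs at a promoter of any gene fell and 6.42% rose. That promoter RE of SOX6 was SOX6-RE42, named after its values were seen (−0.53 ± 0.16, adjusted p = 0.018).

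A smaller number of REs rose. SOX6-RE19 (chr11:16593888-16594388, intron) rose from 0.328 to 1.42 CPM (median 0.654) to 0.766 to 2.46 CPM (median 1.40), groups that overlap in range, and its log2 fold change was 0.93 ± 0.18 (adjusted p = 0.00038). SOX6-RE26 (chr11:16346892-16347392, intron) and SOX6-RE20 (chr11:16581801-16582301, intron) each had a log2 fold change of 0.68, with adjusted p of 0.0026 and 0.0089. SOX5-RE16 (chr12:24236586-24237086) rose by 0.77 ± 0.20 from 0.654 CPM (adjusted p = 0.0062), and SOX5-RE13 (chr12:24284409-24284909) rose by 0.51 ± 0.15 from 1.2 CPM (adjusted p = 0.011). Without the differentiation batch covariate, edgeR called 17 REs of both genes lower and 1 higher, against 10503 and 4601 of all REs. In that fit the adjusted p was 0.081 for SOX6-RE19, 0.089 for SOX6-RE26, 0.35 for SOX6-RE20 and 0.092 for SOX5-RE13. SOX5-RE52 and SOX6-RE9, outside the naming rule and chosen after their values were seen, rose by 0.44 ± 0.15 and 0.28 ± 0.07. At SOX5, 2 of the 3 that rose lay in the gene body 5′ of its middle. At SOX6, 2 of 4 lay there and 1 lay upstream of the gene.

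Intermediate doses were compared with 0 nM to ask how far SOX9 must fall before these REs respond. At 16 nM, 14 REs of SOX5 fell and 1 rose, and 6 of SOX6 fell and 3 rose, against 9.12% and 7.12% of all REs that fell and rose. With the replicate as a block, 40 REs of both genes were called at 16 nM (31 fell, 9 rose) in place of 24, where 26.1% of all REs were called in that fit. At 5 nM, 8 of SOX5 fell and 1 rose, and 5 of SOX6 fell and 1 rose, where 4.24% of all REs fell and 1.08% rose. Without replicate S9CC47_R6, whose 5 nM sample stood apart, 19 REs in place of 15 were called at 5 nM, 28 in place of 24 at 16 nM and 41 in place of 38 at 500 nM. Of all 151457 REs, 17338 in place of 8052 were then called at 5 nM, 30965 in place of 24604 at 16 nM and 39791 in place of 36546 at 500 nM. Without S9CC13_R10, S9CC47_R5 or S9CC47_R8, 8 were called at 5 nM in each case, where 6047, 5378 and 5257 of all REs were called.

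At 1.6 nM a single RE fell, SOX6-RE51 (log2 fold change −0.45 ± 0.07, adjusted p = 0.034), against 0.0383% of all REs. With the replicate block 6 were called at that dose (SOX5-RE23, SOX5-RE24, SOX5-RE30, SOX5-RE37, SOX6-RE40 and SOX6-RE51), where 0.941% of all REs fell in that fit, and without replicate S9CC47_R6 there were 4 (SOX5-RE23, SOX5-RE30, SOX5-RE37 and SOX6-RE51). Without S9CC13_R6 there were 3, and without any of the other 5 replicates 0 were called. Of all REs, 978 were called at 1.6 nM without S9CC47_R6 and 458 without S9CC13_R6, in place of 58. Leaving out each of the other 5 gave 0 to 36. At 0.5 nM none of the 115 was called by edgeR or DESeq2, with 4 at an unadjusted p under 0.05, and 0% of all REs passed.

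The REs are described by their means across the SOX9 levels, and no test compared the shapes. SOX5-RE23 went from 5.71 ± 3.07 CPM at 100% SOX9 to 4.23 ± 2.00 at 51.7%, 2.50 ± 1.29 at 25.8%, 1.32 ± 0.467 at 8.14% and 0.759 ± 0.188 at 0.95% (SD, n = 7). SOX6-RE51 went from 15.7 ± 6.99 CPM to 11.2 ± 4.29, 6.37 ± 2.08, 4.18 ± 0.801 and 3.21 ± 0.999 over the same levels. By contrast SOX5-RE34, chosen after its values were seen, stayed at 16.4 ± 2.65 and 15.9 ± 2.11 CPM at 100% and 51.7%, and went to 13.3 ± 1.38, 10.3 ± 1.71 and 8.27 ± 1.59 below that. At SOX6-RE44, also chosen this way, the means were 16.2, 17.0, 16.1, 14.4 and 12.9 CPM.

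**Figure D2:**
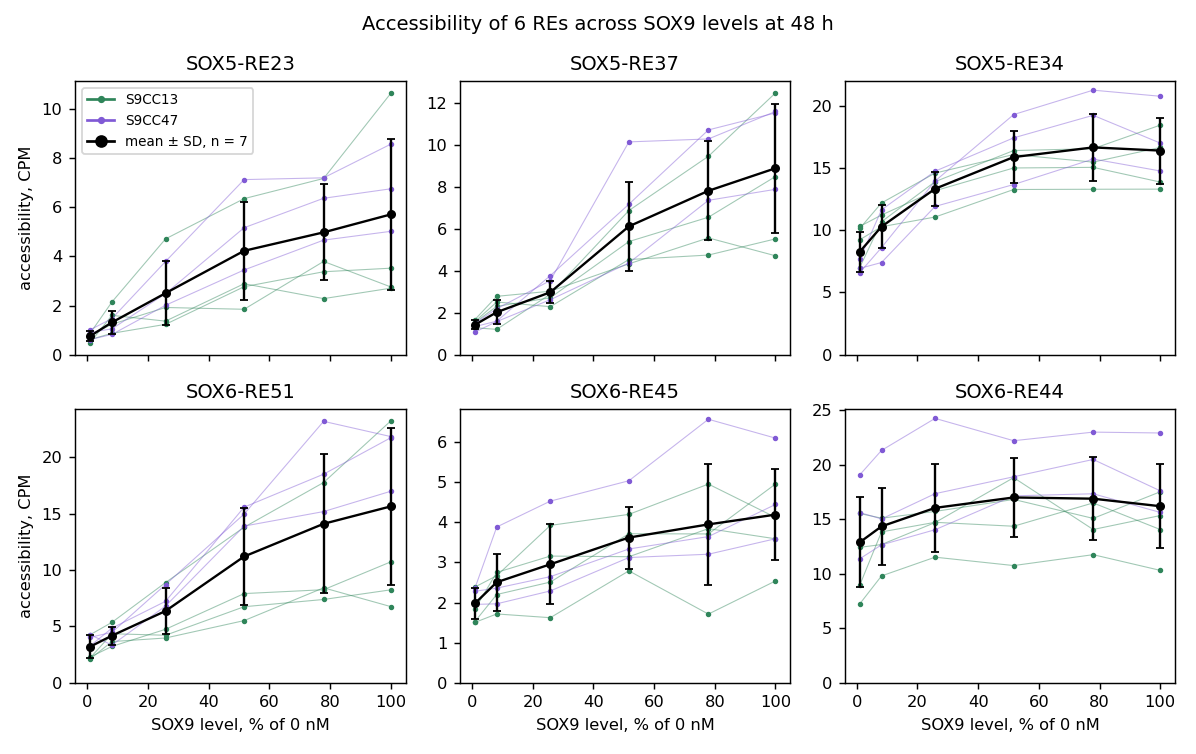
Accessibility in CPM (y axis) against the SOX9 level as a percentage of that at 0 nM (x axis) for 6 REs, with each replicate as a thin line coloured by clone and the mean ± SD of 7 replicates in black. The means of SOX5-RE23 and SOX6-RE51 are lower at 51.7% SOX9 than at 100%, whereas that of SOX5-RE34 stays near its 0 nM level at 51.7% and that of SOX6-RE44 at 25.8%. No RE was called at 77.9%.

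A Hill curve in SOX9 level, with its ends fixed at the 0 and 500 nM means, gave an ED50, the SOX9 level in percent at the midpoint of the change. Over the 17 fallen REs of SOX5 it ran from 10.2 to 46.4 with a median of 27.5, and over the 14 of SOX6 from 8.65 to 44.6 with a median of 22.5. The highest values were those of SOX5-RE38 (46.4), SOX5-RE30 (45.5), SOX5-RE27 (44.6, with 24.4 to 53.4 when each replicate was left out), SOX6-RE41 (44.6), SOX5-RE24 (42.6), SOX5-RE37 (41.6) and SOX5-RE25 (41.2), and SOX6-RE51 had 39.2. SOX5-RE23 had 33.3 and the internal promoter SOX5-RE26 had 22.9. SOX5-RE34 had 16.6, with 14.9 to 18.5 when each replicate was left out. The curve fitted better than a straight line, by over 2 units of the Akaike information criterion, at 15 of the 31 fallen REs. At SOX5-RE24 the line fitted better than the curve, by 6.19 units. At the other REs short of this margin, the midpoint rests on a shape that the data did not tell from a line. Among them were SOX5-RE23, SOX5-RE25, SOX5-RE27, SOX5-RE30, SOX5-RE37, SOX5-RE38 and SOX6-RE51. The ED50 values are descriptions of called REs, and no test compared them.

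**Figure D3:**
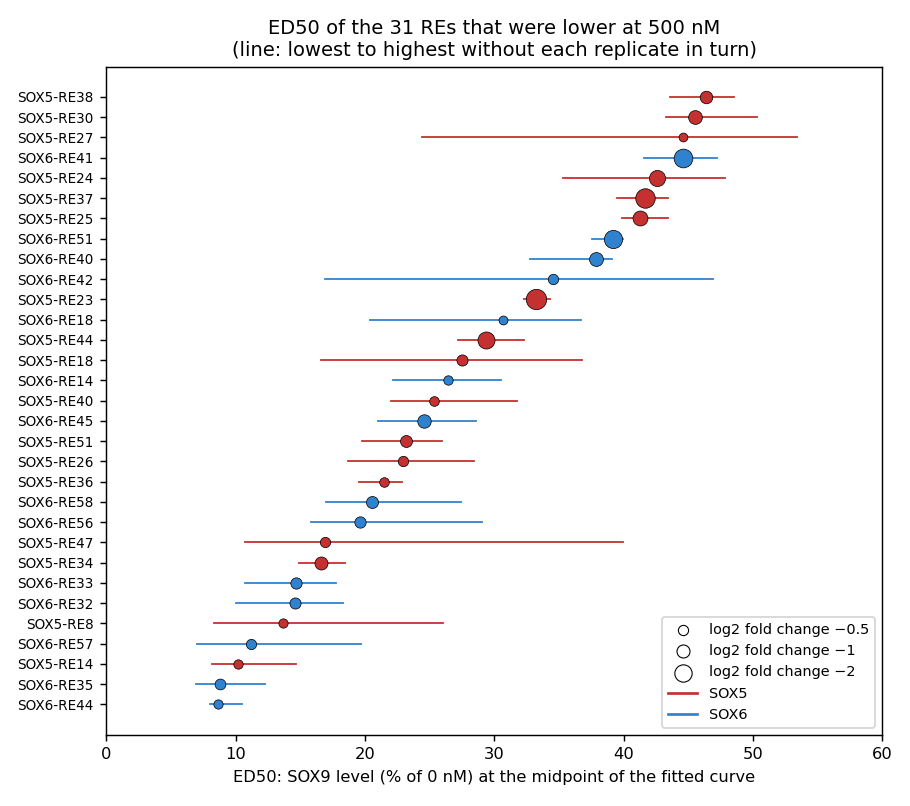
ED50, the SOX9 level in percent of 0 nM at the midpoint of the fitted curve (x axis), for the 31 REs that fell at 500 nM (y axis), red for SOX5 and blue for SOX6. Lines span the values without each replicate in turn, the size of a point is its log2 fold change, and the values run from 8.65 to 46.4.

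Averaged over the fallen REs, SOX5 had reached 9.31 ± 11.5% of the 500 nM change with 0.5 nM, 21.9 ± 15.6% with 1.6 nM, 52.2 ± 19.0% with 5 nM and 82.1 ± 32.4% with 16 nM (SD, n = 7). For SOX6 the shares were 10.6 ± 11.0%, 16.3 ± 13.4%, 52.0 ± 15.5% and 75.2 ± 25.3%. The spread between replicates was as large as the difference between the genes at every dose.

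The time course asked which REs respond within hours. At 3 h of 500 nM, 15 REs of SOX5 and 8 of SOX6 had fallen and none had risen, where 7.43% of all REs fell and 0.912% rose. At 24 h, 19 of SOX5 fell and none rose, and 10 of SOX6 fell and 1 rose, against 9.93% and 4.70% of all REs. With 2 replicates per group the number at 3 h depended on the tool, with 15 REs of both genes called by DESeq2. Of all REs, DESeq2 called 8523 at 3 h in place of 12633. Leaving out S9CC13_R4 or S9CC13_R5 left 1 sample per group, and fewer REs were called at 3 h and 24 h. This held among the REs of both genes and among all REs.

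SOX5-RE23 held 10.4 and 9.19 CPM with vehicle, 1.35 and 1.26 CPM at 3 h, and 1.18 and 1.38 CPM at 24 h, a log2 fold change of −2.97 ± 0.18 at 3 h (adjusted p = 1.6e-09). SOX5-RE37 held 13.3 and 15.2, then 2.60 and 2.99, then 1.74 and 2.56 CPM. SOX6-RE51 held 28.7 and 32.1, then 4.09 and 7.30, then 6.31 and 6.58 CPM, a log2 change of −2.49 ± 0.15 at 3 h (adjusted p = 1.3e-09). In all 3 REs the groups were far apart by 3 h. The internal promoter SOX5-RE26 held 46.3 and 31.3 CPM with vehicle, 30.0 and 21.3 CPM at 3 h and 25.8 and 19.6 CPM at 24 h, where vehicle and 3 h samples came near each other between batches, and its fall was 0.66 ± 0.08 on the log2 scale at 3 h within batches (adjusted p = 7.1e-06, and 0.051 without S9CC13_R4).

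Of the 31 REs lower at 48 h, 16 were also called lower at 3 h (10 of SOX5 and 6 of SOX6), 23 at 24 h, and 8 at neither (2 and 6). Of the 21114 REs of the whole table that were lower at 48 h, 43.3% were also lower at 3 h, 60.1% at 24 h and 38.6% at neither. The 7 that rose at 48 h included 0 called at 3 h and 1 at 24 h, SOX6-RE20 (0.74 ± 0.22, adjusted p = 0.028), where 1.61% and 26.2% of all REs that rose at 48 h were also higher at those times. The time course and the 48 h dose series share only batch R5, and the change between times was not tested. Conversely, 7 of the 23 REs that had fallen at 3 h were not called at 48 h, against 17.9% of all REs that fell at 3 h. They were SOX5-RE20, SOX5-RE21, SOX5-RE22, SOX5-RE31, SOX5-RE49, SOX6-RE21 and SOX6-RE46, all chosen after their values were seen. Of these, SOX5-RE49 had log2 fold changes of −0.93 ± 0.26 at 3 h, −1.30 ± 0.26 at 24 h and 0.30 ± 0.21 at 48 h (adjusted p = 0.028, 0.0019 and 0.35).

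**Figure D4:**
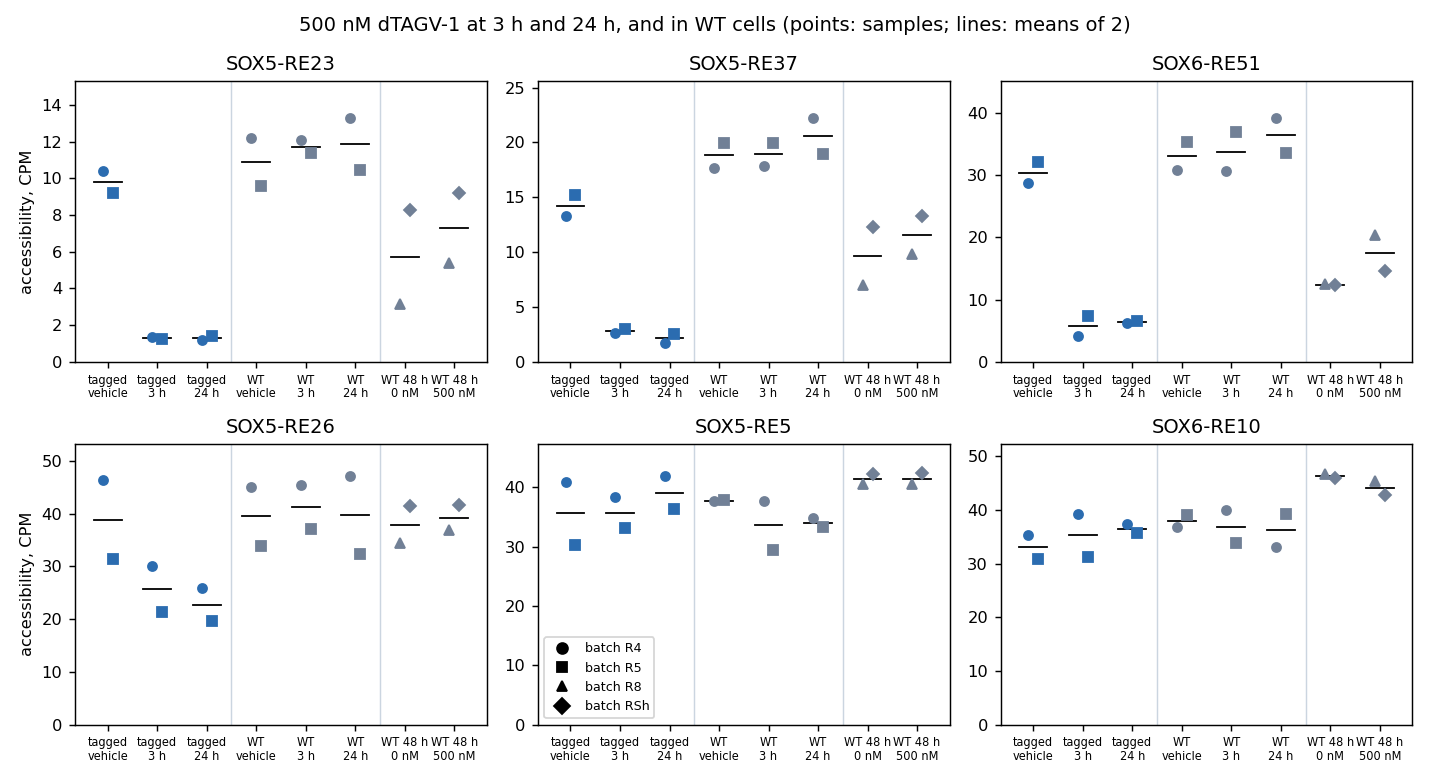
Accessibility in CPM (y axis) of 6 REs in each sample of the time course and of WT cells at 48 h (x axis, groups), with SOX9-tagged samples in blue, WT samples in grey, marker shapes for batches and lines for the means of 2. SOX5-RE23, SOX5-RE37 and SOX6-RE51 drop by 3 h in SOX9-tagged cells, and the WT samples stay near or above their vehicle level.

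WT cells show what dTAGV-1 does without the tag. At 3 h and 24 h 0 of the 115 REs were called in WT cells, with 2 at an unadjusted p under 0.05 at each time in edgeR, and 0% of all REs passed at either time. SOX5-RE23 held 12.2 and 9.56 CPM with vehicle, 12.1 and 11.4 CPM at 3 h and 13.3 and 10.4 CPM at 24 h. At 48 h, 1 RE was called in WT, against 0.303% of all REs. It was SOX6-RE51, higher with dTAGV-1 (12.5 and 12.3 against 20.3 and 14.6 CPM, log2 fold change 0.47 ± 0.09, adjusted p = 0.0009), opposite in direction to its fall in SOX9-tagged cells. DESeq2 called 0 of the 115 in WT at 48 h, and edgeR had 7 at an unadjusted p under 0.05. Without either WT replicate, edgeR called none.

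The difference between the genotypes was itself tested. The effect was lower in SOX9-tagged than in WT cells at 11 REs of SOX5 and 5 of SOX6 at 3 h, against 5.13% of all REs, and at 13 and 7 at 24 h, against 6.28%. At 48 h it was lower at 11 of SOX5 and 8 of SOX6 and higher at 1 of SOX5, against 7.29% and 3.56%. At SOX5-RE23 the difference at 48 h was −3.30 ± 0.25 on the log2 scale (adjusted p = 5.5e-11), and at SOX6-RE51 −2.72 ± 0.19 (adjusted p = 6.7e-12). Of the 31 REs lower at 48 h, 19 had a lower effect than in WT by this test. Without WT_R4 at 24 h, or without WT_R8 at 48 h, 1 WT sample per group remained and fewer REs differed. This held among the REs of both genes and among all REs.

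No RE was called different in response between the clones S9CC13 and S9CC47 at 500 nM by edgeR or DESeq2, with 6 at an unadjusted p under 0.05 and 0% of all REs called. Without dTAGV-1, SOX9-tagged and WT cells differed at 0 of the 115 REs by edgeR and DESeq2, with 13 at an unadjusted p under 0.05, against 0.950% of all REs. A p that misses the threshold does not show equal levels, and at SOX5-RE23 the tagged minus WT difference was 0.12 ± 0.14 on the log2 scale.

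Summing all REs of a locus gave 279.5 ± 25.3 CPM at SOX5 and 435.5 ± 41.5 CPM at SOX6 at 0 nM (SD, n = 7). At 500 nM the sums were 225.9 ± 7.13 and 392.8 ± 20.5 CPM. Against 0 nM of the same replicate, the log2 change of the SOX5 sum was −0.080 ± 0.057 for 1.6 nM and −0.179 ± 0.077 for 5 nM (SD, n = 7). It was −0.249 ± 0.106 for 16 nM and −0.303 ± 0.151 for 500 nM. All 7 replicates were lower from 1.6 nM on, and each of these doses reached the smallest p that 7 replicates allow, 0.0156 (adjusted p = 0.026, exact two-sided sign-flip permutation test over 10 comparisons). The SOX6 sum changed by −0.085 ± 0.075 for 5 nM (6 of 7 lower, adjusted p = 0.0446, exact), −0.113 ± 0.064 for 16 nM and −0.145 ± 0.083 for 500 nM (7 of 7 lower, adjusted p = 0.026, exact). At 0.5 nM the changes were −0.032 ± 0.041 for SOX5 and −0.030 ± 0.055 for SOX6, within their spread (adjusted p = 0.117 and 0.203, exact). The test treats the 7 replicates as independent, although S9CC13_R6 and S9CC47_R6 share differentiation batch R6. When either of these was left out, the exact adjusted p of the SOX5 sum was 0.0521 from 1.6 nM on. That of the SOX6 sum was then 0.0893 for 5 nM and 0.0521 for 16 and 500 nM. The smallest exact p of 6 replicates is 0.0312.

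The SOX5 sum fell further than the SOX6 sum, by a test that was added after the data were seen. The difference, SOX5 minus SOX6, was −0.094 ± 0.050 for 5 nM, −0.136 ± 0.081 for 16 nM and −0.158 ± 0.080 for 500 nM (SD, n = 7), with SOX5 lower in 7 of 7 replicates at each (exact sign-flip permutation test, adjusted p = 0.026). At 1.6 nM it was −0.046 ± 0.069 (adjusted p = 0.215, exact). Here too S9CC13_R6 and S9CC47_R6 count as separate replicates of batch R6. Without each of them in turn the difference for 500 nM was −0.139 and −0.150. It was not tested again without them, and the smallest exact p of 6 replicates is 0.0312 before adjustment. A sum weighs the most open REs most. That of SOX6 includes REs nearest to PLEKHA7 or C11orf58, among them SOX6-RE13, the most open RE of all. Their part in the difference was not tested. When counts were scaled by library totals the changes in the sums were smaller, and the adjusted p of all those of SOX5 and SOX6 exceeded 0.05. For SOX5 the exact adjusted p was 0.112 for 1.6 nM and 0.0521 for 5, 16 and 500 nM. For SOX6 it was 0.112 for 5 nM and 0.0625 for 16 and 500 nM. In the time course the SOX5 sum was 311.7 and 302.1 CPM with vehicle and 233.5 and 228.5 CPM at 3 h, and in WT it was 314.6 and 322.3 against 320.3 and 318.9 CPM.

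**Figure D5:**
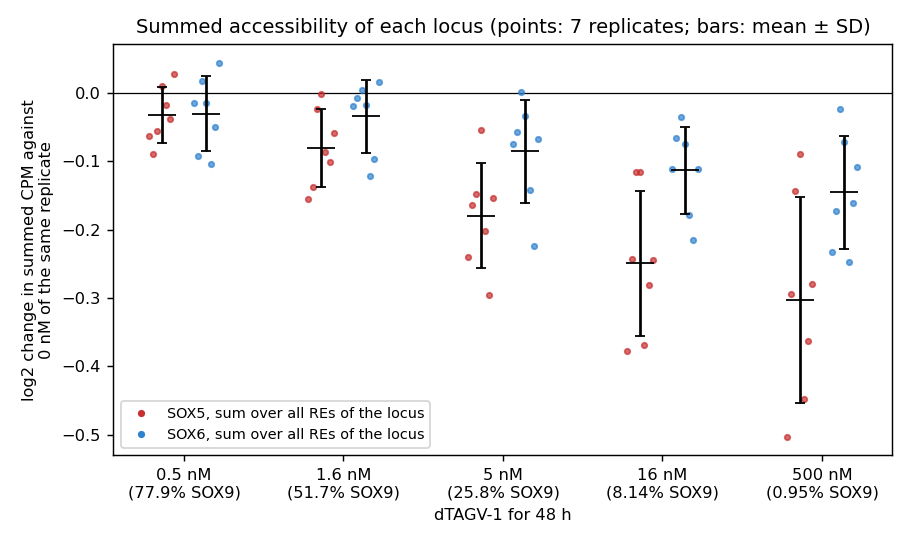
Log2 change in the summed CPM of all REs of SOX5 (red) or SOX6 (blue) against the 0 nM sample of the same replicate (y axis) at each dose of dTAGV-1 for 48 h (x axis), with points for 7 replicates and bars for mean ± SD. The SOX5 mean goes from −0.032 at 0.5 nM to −0.303 at 500 nM and the SOX6 mean from −0.030 to −0.145.

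Among 18 other genes of the chondrogenic pathway, taken as a list, 75 of 429 REs fell and 39 rose at 500 nM (17.48% and 9.091%), against 13.9% and 10.2% of all REs, with a median log2 fold change of −0.03 against 0.02. COL2A1, the main collagen of cartilage, had 10 of 21 REs lower, and MATN1, a cartilage matrix protein, 12 of 29 lower and 1 higher. SOX13, the third SoxD gene, had 7 of 33 lower and none higher. ACAN, the main cartilage proteoglycan, had 4 of 25 lower and 3 higher, and SOX9 itself 1 of 19 lower and 8 higher. NKX3-2, which represses chondrocyte maturation, had 4 of 14 higher and 0 lower.

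As a description, the genes with summed accessibility most like that of SOX5 across the 10 dTAGV-1 contrasts were NRG3 (r = 0.9947), SERPINA12 (0.9942) and IGSF6 (0.9935), among 16021 coding genes with 10 or more REs. For SOX6 they were PRELID2 (0.9944), RNPC3 (0.9940) and MPPED2 (0.9920). SOX6 was 139th on the list for SOX5 (r = 0.9689). The contrasts share their control samples, so many genes that fall with SOX9 correlate highly.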

How the data were processed

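ATAC-seq was analysed in 58 samples. The deposited table holds counts, which the authors made without normalization or pooling of replicates: reads were trimmed with skewer, aligned to hg38 with Bowtie2 2.4.1, and filtered for duplicates, mitochondrial reads and mapping quality with SAMtools 1.10. MACS2 2.2.7.1 summits found in several differentiations or lines were extended and merged into one RE set. REs that open in few samples are therefore not counted, and levels do not depend on peak calls in single samples. Starts were read as counted from 0 and are printed counted from 1. All table columns were used. The names of 3 SOX9-tagged time-course columns of batch R5 give clone S9CC47 where the titles give S9CC13. They were mapped by batch, treatment and time.

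Counts were tested with edgeR 4.0.16 in R 4.3.3 (TMM, quasi-likelihood F test, differentiation batch as covariate, no filter, Benjamini-Hochberg over all 151457 REs, threshold 0.05). The study's methods used DESeq2, run here (1.42.0) as an alternative. Differences between genotypes and clones were interaction terms, with line and batch as blocks. Standard errors were derived from the F statistic. CPM values used TMM-scaled library sizes. Locus totals were tested by exact sign-flip permutation. Fits were tested on simulated data. The labels pair samples of one line and differentiation, and same-replicate deviations correlated at 0.711 to 0.836 on average against −0.138 to −0.118 for other pairs. The lowest same-replicate pair was 0.0888, at 5 nM. Deviations from a dose mean cancel over the 7 replicates, so the mean of other pairs is no separate comparison.

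The 24 named REs were, per gene, the 6 largest falls and 3 largest rises at 500 nM called and shared by 7 of 7 replicates, the 3 most open promoter REs (within 1 kb of a start site of the gene), the 2 most open REs, any called at 1.6 nM, and any with facing cores 3 to 5 bases apart (0). Members and lists were chosen with earlier results of these data known.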

Additional observations from a re-analysis of the deposited data

Results flagged for a closer look

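Of 156 sets of 7 samples tested for an outlying sample, 6 had one, where chance gives about 1 in 20. SOX5-RE28 at 5 nM was 24.1 CPM in S9CC13_R10, against 18.4 to 20.3 CPM in the other samples. SOX6-RE40 was high in S9CC13_R6, at 10.5 CPM at 1.6 nM (others 5.76 to 7.69) and 6.74 CPM at 16 nM (others 3.81 to 4.44). The SOX6 locus total at 1.6 nM was also high in S9CC13_R6, at 500.8 CPM (others 397.5 to 438.4). SOX6-RE58 at 1.6 nM was 1.25 CPM in S9CC47_R6 (others 0.772 to 0.930), and SOX6-RE10 at 5 nM was 38.6 CPM in S9CC47_R6 (others 44.5 to 47.5).

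By the interaction test in edgeR, the effect of 500 nM dTAGV-1 differed between SOX9-tagged and WT cells at 16 REs at 3 h, 20 at 24 h and 20 at 48 h.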

How the results depend on the processing

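Counts of called REs kept within 1.5 times of the main value in 98 alternatives that kept all samples and moved further in 13. With the replicate block, 40 REs were called at 16 nM and 6 at 1.6 nM, in place of 24 and 1, and 47 at 500 nM, 17 at 5 nM and 0 at 0.5 nM, in place of 38, 15 and 0. No other call count moved by over 1.5 times under the replicate block. Without the differentiation batch covariate there were 18 with 500 nM, 15 with 16 nM, 4 with 5 nM and 0 with 1.6 nM. Of all REs, 15104, 7717, 2145 and 0 were then called at these doses. Fits of that kind called 0 at 3 h (19 at an unadjusted p under 0.05), 2 at 24 h and 0 in WT at 48 h. Over all REs they called 0, 969 and 0. DESeq2 called 2 at 1.6 nM, 15 at 3 h and 0 in WT at 48 h. Its calls over all REs were 358, 8523 and 0. Under the concentration labels of S9CC13_R14, 2 were called at 1.6 nM, and 173 of all REs. Restricting the REs to those nearest SOX5 or SOX6, an alternative chosen after seeing the data, moved no count by over 1.5 times.

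Leaving out each replicate in turn gave 0 to 4 REs called at 1.6 nM, 8 to 19 at 5 nM, 13 in both cases at 3 h, 17 to 18 at 24 h, 0 in both cases in WT at 48 h, 13 to 19 for the genotype difference at 24 h, 12 to 20 for that at 48 h, 0 to 2 between genotypes without dTAGV-1 and 0 to 1 between clones. Where 1 sample of a group remained, it was assumed to vary like the other groups.

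With library totals, the SOX5 sum changed by −0.065, −0.166, −0.203 and −0.269 with 1.6, 5, 16 and 500 nM, and the SOX6 sum by −0.073 for 5 nM, −0.067 for 16 nM and −0.112 for 500 nM, none past the threshold. Without each replicate in turn the SOX5 sum ranged from −0.0935 to −0.0678 for 1.6 nM and −0.2003 to −0.1599 for 5 nM, and from −0.2717 to −0.2279 for 16 nM and −0.3383 to −0.2694 for 500 nM. The SOX6 sum ranged from −0.0999 to −0.0623 at 5 nM, −0.1260 to −0.0961 at 16 nM and −0.1654 to −0.1280 at 500 nM. With 6 replicates the smallest exact p is 0.0312, and each of these 7 values lost its call in 6 of 7 cases.

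Changes of sign among named REs were found at REs not called. SOX6-RE10 at 500 nM and 48 h was 0.0035 with DESeq2, 0.0036 with RLE size factors, 0.0169 under the concentration labels of S9CC13_R14, 0.0305 with library totals and −0.0141 to 0.0180 without each replicate. SOX6-RE13 was 0.0190 with library totals and −0.0443 to 0.0091 without each replicate. At 3 h, with library totals, SOX5-RE28 was 0.0371, SOX5-RE5 0.0088 and SOX6-RE13 0.0164. Without each replicate, at 3 h, SOX5-RE28 ranged from −0.0723 to 0.0161, SOX5-RE5 from −0.1795 to 0.0674, SOX5-RE13 from −0.7643 to 0.1128, SOX6-RE10 from −0.0343 to 0.0667, SOX6-RE19 from −0.3757 to 0.0384 and SOX6-RE26 from −0.3100 to 0.2507. The cause was not tested. Depth limits weakly open REs such as SOX5-RE16, with 38.5 counts per sample on average.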
